A study of Arabidopsis thaliana with 12 samples.

Results

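The genes described here are 5 members of the UMAMIT family of Arabidopsis thaliana, taken by locus code from a table of 28775 genes: UMAMIT14 (AT2G39510), UMAMIT18 (AT1G44800), UMAMIT28 (AT1G01070), UMAMIT29 (AT4G01430) and UMAMIT36 (AT1G70260). They were chosen by their levels and differences between genotypes in these same libraries, so their levels and fold changes are given as a description, with no test. The family has 41 other genes in the table, of which 27 were high enough to test. RNA was taken from mature leaves of 21-day-old Col-0 plants grown on soil without treatment, in 16 h of light at 23 °C and 8 h of dark. The 4 groups of 3 libraries were trb45 clf29, with mutations in TRB4, TRB5 and CLF; clf29, with the CLF mutation; trb45, line trb45-1, with the TRB4 and TRB5 mutations; and WT. Another trb45 line and a trb123 mutant that the study's design names were not analysed here, so trb45 values stand for 1 line. The third trb45 clf29 library has a column with no replicate number and is called the unnumbered library.

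UMAMIT proteins are plant membrane carriers that let amino acids cross a membrane, often out of the cell, down their gradient. Amino acids made in leaves move through the phloem to roots and seeds, and export by UMAMITs is a step on that route. UMAMIT14 and UMAMIT18 act in vascular tissue of roots and fruits, where amino acids leave the phloem, and UMAMIT18 is also named SIAR1. UMAMIT28 and UMAMIT29 act in developing seeds, on the way from the seed coat and endosperm to the embryo. UMAMIT36, also named RTP1, is known for making plants more susceptible to Phytophthora. CLF is a histone methyltransferase of Polycomb repressive complex 2, which keeps genes silent through H3K27 methylation. TRB proteins bind the telobox, a short motif named after the telomere repeat. The study asked how TRB4 and TRB5 act on genes under Polycomb control, and the 4 groups allow the trb45 mutations to be compared with and without CLF.

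The 5 genes lie on 3 chromosomes, with coordinates from the RefSeq annotation of TAIR10.1. UMAMIT14 is at chr2:16491143-16493343 on the minus strand with 7 exons, and UMAMIT29 at chr4:585598-588126 on the plus strand with 5. Chromosome 1 carries UMAMIT18 at chr1:16913994-16917053 with 7 exons, UMAMIT28 at chr1:38444-41017 with 6 and UMAMIT36 at chr1:26456774-26459570 with 7, all on the minus strand. Their proteins are 374 (UMAMIT14), 370 (UMAMIT18), 365 (UMAMIT28), 365 (UMAMIT29) and 375 (UMAMIT36) residues long. UMAMIT28 and UMAMIT29 share 69.3% of their residues and UMAMIT14 and UMAMIT18 share 50.5%, counted over the shorter protein in a global alignment. The other pairs among the 5 share 25.4% to 31.0%, around the median of 30.1% for all 1035 pairs of 46 family proteins.

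The 250 bases before the RefSeq gene start are shown for UMAMIT14 (chr2:16493344-16493593, minus strand), which had no count in any WT library. The sequence is from RefSeq, TAIR10.1, written 5′ to 3′, and holds no TATAAA match:
UMAMIT14: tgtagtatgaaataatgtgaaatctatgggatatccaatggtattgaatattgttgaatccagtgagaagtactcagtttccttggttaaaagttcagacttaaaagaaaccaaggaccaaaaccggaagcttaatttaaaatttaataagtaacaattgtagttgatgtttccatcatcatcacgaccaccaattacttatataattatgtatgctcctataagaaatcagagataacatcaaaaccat
The telobox (AAACCCTA) was searched on both strands from 250 bases before to 50 after each gene start. It was found in 6.16% of 26709 such windows and in 0 of the 46 family windows. Its shorter form AACCCTA, which lies inside it, was in 8.74% of all windows and again in 0 of 46. A TATAAA was in 52.6% of all windows and in 27 of 46 family windows. A GAGAGA was in 29.1% of all windows and in 9 of 46 family windows, and CACGTG in 7.79% and 3 of 46. From 1000 bases before to 500 after the start, the telobox was in 27.2% of all windows and in 6 of 46 family windows, of which UMAMIT14 was the only 1 of the 5 genes. Its match starts 140 bases after the gene start, in the 5′ UTR, since the start codon lies 258 bases after it. It is shown with 10 bases on either side, at chr2:16493187-16493214 on the minus strand, with capitals marking the telobox:
UMAMIT14 telobox: aaatattacaAAACCCTAaaaaccctcc
A match here is a description of the letters and not evidence of binding.

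Total counts per library lay between 53545914 and 53682961 in trb45 clf29, 53985071 and 54215882 in clf29, 45519206 and 54100770 in trb45, and 53923647 and 54047574 in WT. Levels are given as CPM, counts scaled to a common library total. The lowest level that could be read was set at 3 counts per library, 0.0519 to 0.0655 CPM, a floor that covers counting error only. The mutated genes were lower in the libraries labelled as their mutants. TRB5 averaged 1.33 CPM in trb45 clf29, 17.4 in clf29, 3.17 in trb45 and 17.2 in WT, TRB4 averaged 1.27, 4.25, 2.29 and 5.51 CPM in the same order, and CLF 0.150, 0.0761, 13.8 and 11.9. Nothing in the labels says whether replicates came from separate plants, so errors and p-values measure the spread between these libraries, which may be technical. In leaves as a whole, a change in the number of cells of a type and a change of RNA per cell cannot be told apart.

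UMAMIT14 was not detected in WT leaves and was present in every library with the clf29 mutation. It had 8.63, 6.19 and 7.38 CPM in trb45 clf29 and 5.12, 3.34 and 3.99 CPM in clf29. In trb45 it had 0, 0.131 and 0 CPM, and in WT 0 in each of the 3 libraries. The lowest trb45 clf29 library was above the highest clf29 library, and trb45 stood at 0 but for the 6 counts of replicate 2. Against the floor of 3 counts per library, UMAMIT14 was at least 138-fold higher in trb45 clf29 and at least 77.2-fold higher in clf29 than in WT. Between the mutants with a readable level, trb45 clf29 was 1.78 times clf29, a log2 fold change of 0.83 (SE 0.25). Over the 3 libraries trb45 clf29 had 1131 counts and trb45 had 6, a ratio per library size of 198 with an exact 95% interval of 90.7 to 541 for counting error only. That interval rests on trb45 replicate 2, without which trb45 had no UMAMIT14 count. The same trb45 library also held 3 counts of SHP2, a carpel gene at 0 in the other trb45 libraries. Other carpel and ovule genes were mixed: in trb45 replicates 1 to 3, STK had 0, 5 and 2 counts, SHP1 2, 0 and 8, and SEP3 2, 2 and 0. AG was at 0.831, 0.874 and 0.855 CPM in these libraries, and CRC and INO had no count. The part of this library's other carpel counts in the result was not tested.

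UMAMIT29 was also highest in trb45 clf29 and next highest in clf29, in both at a lower level than UMAMIT14. Its levels were 1.59, 2.97 and 2.21 CPM in trb45 clf29, 0.824, 0.386 and 0.646 CPM in clf29, 0.138, 0.131 and 0.105 CPM in trb45, and 0 in each WT library. No group overlapped another, though the trb45 values rest on 8, 6 and 6 counts. The bounds against WT were at least 42.0-fold higher in trb45 clf29, at least 11.5-fold in clf29 and at least 2.32-fold in trb45. The log2 fold change was 1.86 (SE 0.31) in trb45 clf29 against clf29 and 4.16 (SE 0.39) in trb45 clf29 against trb45. Unlike UMAMIT14, UMAMIT29 was thus above the floor in all 3 trb45 libraries.

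UMAMIT28, the closest relative of UMAMIT29 in the family, was expressed in all 4 groups. It had 4.80, 7.23 and 6.44 CPM in trb45 clf29, 1.87, 1.28 and 1.25 CPM in clf29, 2.08, 2.25 and 2.30 CPM in trb45, and 0.992, 0.707 and 0.657 CPM in WT. Here trb45 was above clf29, the reverse of their order for UMAMIT29 and UMAMIT14, and again no group overlapped another. The log2 fold change against WT was 2.97 (SE 0.21) in trb45 clf29, 0.90 (SE 0.23) in clf29 and 1.49 (SE 0.22) in trb45. The trb45 effect was 2.07 (SE 0.20) with the clf29 mutation and 1.49 without it, a difference of 0.58 (SE 0.30). Its protein shares 79.3% of its residues with UMAMIT27 and 77.7% with UMAMIT26, and how reads that fit more than 1 gene were counted is not given in the sources used here, so its level is uncertain to that extent. UMAMIT27 itself fell in trb45 against WT (log2 fold change −0.75, edgeR adjusted p = 0.00487), the direction opposite to that of UMAMIT28. It averaged 2.28 CPM in trb45 clf29, 3.26 in clf29, 1.62 in trb45 and 2.73 in WT. Its means were thus higher with the clf29 mutation, as those of UMAMIT28 were, though clf29 overlapped WT. Protein identity does not measure how many reads fit both genes. The part of shared reads was not tested, here or for other close pairs of the family.

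UMAMIT18 followed the trb45 mutations more than the clf29 mutation. It had 13.9, 27.4 and 20.5 CPM in trb45 clf29, 3.90, 3.13 and 3.65 CPM in clf29, 10.95, 12.3 and 12.4 CPM in trb45, and 2.65, 2.77 and 2.72 CPM in WT. The groups did not overlap, but the lowest clf29 library was only slightly above the highest WT library. Against WT, the mean was 7.60 times as high in trb45 clf29, 1.31 times in clf29 and 4.38 times in trb45. The log2 fold changes were 2.93 (SE 0.19), 0.39 (SE 0.20) and 2.13 (SE 0.19) in that order. With the clf29 mutation present the trb45 effect was 2.53 (SE 0.19), which is 0.40 (SE 0.26) above that without it. The trb45 clf29 libraries spread widely, with an SD of 6.77 CPM about a mean of 20.6, against 0.0641 about 2.71 in WT.

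UMAMIT36 was the only 1 of the 5 genes that was highest in WT. It had 0.239, 0.231 and 0.391 CPM in trb45 clf29, 2.64, 2.05 and 2.51 CPM in clf29, 1.02, 1.66 and 1.43 CPM in trb45, and 11.7, 12.8 and 10.9 CPM in WT. Each mutant group lay below WT without overlap, and trb45 clf29 lay below both others on 12, 12 and 20 counts. Its mean was 2.43% of WT in trb45 clf29, 20.3% in clf29 and 11.6% in trb45. The log2 fold changes against WT were −5.35 (SE 0.21), −2.30 (SE 0.16) and −3.12 (SE 0.17) in that order. The trb45 effect was −3.05 (SE 0.23) with the clf29 mutation and −3.12 without it, a difference of 0.07 (SE 0.35).

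**Figure D1:**
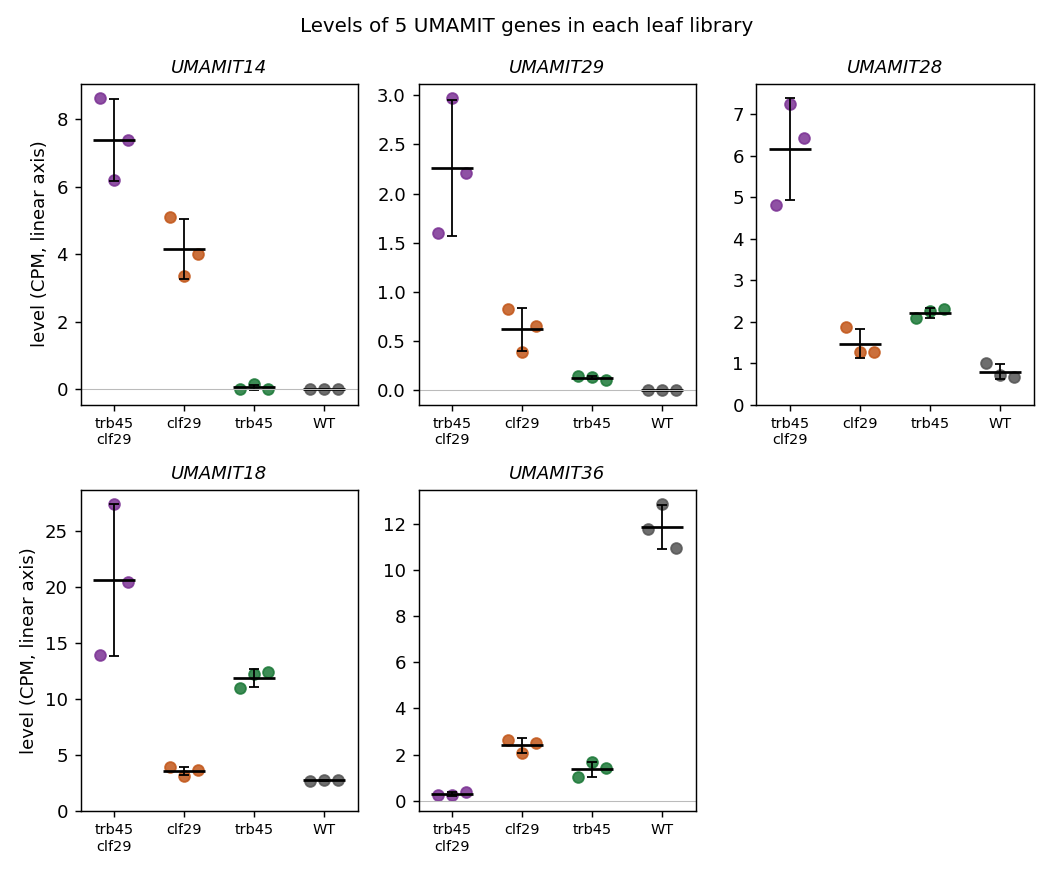
Level of each of the 5 UMAMIT genes in CPM on linear axes with their own ranges, 1 point per library, for trb45 clf29, clf29, trb45 and WT; the bar is the mean of 3 libraries and the whisker its SD. UMAMIT14, UMAMIT29, UMAMIT28 and UMAMIT18 have their highest means in trb45 clf29, and UMAMIT36 has its highest in WT, at 11.8 CPM against 0.287 CPM in trb45 clf29.

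The plot of the 5 genes by library shows 3 orders of the groups. UMAMIT14 and UMAMIT29 ran trb45 clf29, clf29, trb45 and WT from high to low, with UMAMIT14 in trb45 not separable from WT. UMAMIT18 and UMAMIT28 ran trb45 clf29, trb45, clf29 and WT. UMAMIT36 ran the other way round, with WT highest, then clf29, trb45 and trb45 clf29. Within trb45 clf29, UMAMIT18, UMAMIT28 and UMAMIT29 were highest in replicate 2 and lowest in replicate 1, whereas UMAMIT14 was highest in replicate 1 and lowest in replicate 2. Without replicate 2 the log2 fold change of UMAMIT18 in trb45 clf29 against WT was 2.66, and without replicate 1 it was 3.14.

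Set against the family per kb of exon, UMAMIT14, UMAMIT18, UMAMIT28 and UMAMIT29 stood at higher ranks in trb45 clf29 than in WT, and UMAMIT36 at a lower rank. UMAMIT18 was 6th of 46 in trb45 clf29 at 12.4 CPM per kb, and 20th in WT at 1.64. UMAMIT14 was 9th in trb45 clf29 at 4.63 CPM per kb and 12th in clf29 at 2.60. UMAMIT28 was 12th in trb45 clf29 at 3.64 CPM per kb and 27th in WT at 0.464, and UMAMIT29 was 23rd and 38th. UMAMIT36 was 31st in trb45 clf29 at 0.174 CPM per kb and 6th in WT at 7.16. The 5 genes held 8.91% of the family's summed level per kb in trb45 clf29, 3.84% in clf29, 4.65% in trb45 and 4.81% in WT. The family's highest level per kb in each group was that of UMAMIT5, also named WAT1, a vacuolar auxin carrier needed for secondary cell walls, at 76.4 CPM per kb in trb45 clf29, 102 in clf29, 72.4 in trb45 and 84.6 in WT.

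The 41 other family genes were examined next. Among the 14 not tested, the highest count was 14, and 4 of them had none in any library. In trb45 clf29 against WT, 17 of 27 changed with an edgeR adjusted p under 0.05, 8 higher and 9 lower, which is 63.0% beside 48.5% of all 19138 genes tested (25.9% higher and 22.6% lower). In clf29 against WT 10 changed, 3 higher and 7 lower, 37.0% beside 34.7% of all genes (18.5% higher, 16.2% lower). In trb45 against WT 9 changed, 5 higher and 4 lower, 33.3% beside 25.7% (14.5% higher, 11.2% lower). In trb45 clf29 against clf29 11 changed, 7 higher and 4 lower, 40.7% beside 31.4% (17.2% higher, 14.2% lower). In trb45 clf29 against trb45 8 changed, 5 higher and 3 lower, 29.6% beside 30.5% (15.8% higher, 14.7% lower), a split that was 4 higher and 5 lower when libraries were scaled by their total alone. For the interaction, the trb45 effect in clf29 plants minus that in WT plants, 3 of 27 passed, all higher, 11.1% beside 7.47% of all genes (4.16% higher, 3.31% lower). In clf29 against WT and in trb45 clf29 against trb45 the shares were near those of all genes. The 5 genes described above, picked for their differences, are not in these counts. The family's median log2 fold change lay between −0.07 and 0.08 in these 5 comparisons, and that of all genes between 0.00 and 0.02. UMAMIT2, UMAMIT3, UMAMIT8, UMAMIT11, UMAMIT26, UMAMIT40, UMAMIT41 and UMAMIT42 changed in none of the 5.

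**Figure D2:**
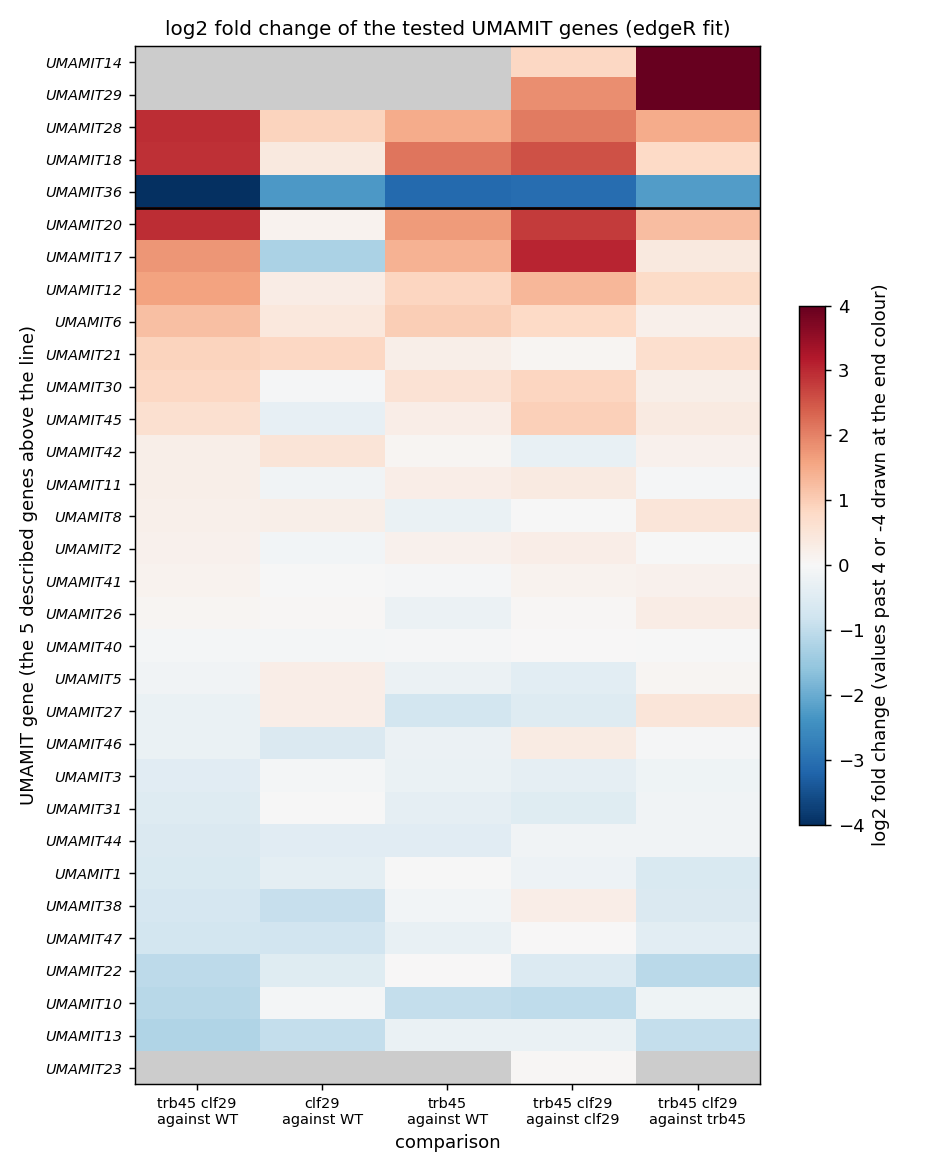
Fitted log2 fold change of each tested UMAMIT gene (rows) in 5 comparisons (columns), red for higher and blue for lower in the group named first; the 5 described genes stand above the line, the others are sorted by trb45 clf29 against WT, and grey marks a fold change not shown because a compared group had 3 counts or fewer in each library. Below the line UMAMIT17, at 3.06 in trb45 clf29 against clf29, and UMAMIT20, at 2.94 in trb45 clf29 against WT, are deepest red.

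Among the other family genes with a mean of at least 1 CPM, UMAMIT20 rose most in trb45 clf29 against WT, and it had the group order of UMAMIT18. UMAMIT20 had 43.0, 61.2 and 51.4 CPM in trb45 clf29, 9.31, 4.91 and 7.91 CPM in clf29, 23.8, 19.8 and 22.3 CPM in trb45, and 6.70, 6.65 and 6.93 CPM in WT. The trb45 and trb45 clf29 libraries lay above all others, and clf29 overlapped WT. It rose by a log2 fold change of 2.94 in trb45 clf29 against WT (SE 0.17, edgeR adjusted p = 5.35e-09), of 2.81 in trb45 clf29 against clf29 (SE 0.17, adjusted p = 1.39e-08) and of 1.70 in trb45 against WT (SE 0.17, adjusted p = 3.20e-06). In clf29 against WT it had 0.13 (adjusted p = 0.610), but in trb45 clf29 against trb45 it rose by 1.24 (SE 0.16, edgeR adjusted p = 5.12e-05). The trb45 effect was larger with the clf29 mutation than without it, by 1.11 (SE 0.24, edgeR adjusted p = 0.00954).

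UMAMIT17, whose protein is the closest to UMAMIT18 with 75.4% of residues shared, lies beside UMAMIT20 on chromosome 4, at chr4:5244865-5248394 and chr4:5238773-5241112. UMAMIT17 averaged 30.3 ± 8.13 CPM in trb45 clf29, 3.64 ± 1.16 in clf29, 22.9 ± 3.38 in trb45 and 8.85 ± 0.294 in WT (SD, n = 3 each). It rose in trb45 against WT (log2 fold change 1.38, edgeR adjusted p = 7.70e-05) and fell in clf29 against WT (log2 fold change −1.28, edgeR adjusted p = 3.19e-04), where UMAMIT18 was slightly higher. In trb45 clf29 against clf29 it rose by 3.06 on the log2 scale (SE 0.21, edgeR adjusted p = 4.57e-08), the largest such increase of the 27. Its trb45 effect was larger by 1.68 with the clf29 mutation (SE 0.28, edgeR adjusted p = 0.00181). Against trb45 alone, trb45 clf29 had 0.40 (adjusted p = 0.106).

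UMAMIT12, the closest relative of UMAMIT14 with 54.5% of residues shared, rose with the trb45 mutations. It averaged 44.3 ± 9.43 CPM in trb45 clf29, 17.5 ± 3.27 in clf29, 26.3 ± 2.93 in trb45 and 14.4 ± 1.27 in WT (SD, n = 3 each). On the log2 scale it differed by 1.62 in trb45 clf29 against WT (edgeR adjusted p = 5.87e-07), 0.87 in trb45 against WT (adjusted p = 4.99e-04) and 0.28 in clf29 against WT (adjusted p = 0.162). The difference was 1.34 in trb45 clf29 against clf29 (adjusted p = 6.30e-06). In trb45 clf29 against trb45 it was 0.75 (edgeR adjusted p = 0.00152). UMAMIT13, next to UMAMIT12 on chromosome 2, went the other way and fell in trb45 clf29 against WT (log2 fold change −1.21, edgeR adjusted p = 4.87e-05), and likewise in clf29 against WT (−0.94, adjusted p = 6.79e-04). UMAMIT35, the closest relative of UMAMIT36, was too low to test, at no more than 0.0399 CPM in any library.

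Several other genes of the family changed as well. UMAMIT6 rose in trb45 against WT (log2 fold change 0.98, edgeR adjusted p = 0.00198) and UMAMIT21 rose in clf29 against WT (0.83, adjusted p = 1.08e-04). UMAMIT10 fell wherever trb45 was compared with its own background: its log2 fold change was −1.02 in trb45 clf29 against clf29 (edgeR adjusted p = 1.76e-04) and −0.94 in trb45 against WT (adjusted p = 4.08e-04). UMAMIT38 fell in clf29 against WT (−0.93, edgeR adjusted p = 0.00410), while UMAMIT22 fell in trb45 clf29 against trb45 (−1.07, adjusted p = 7.90e-04). UMAMIT23, named after its values were seen, resembled UMAMIT14 in being almost absent from trb45 and WT. Unlike UMAMIT14, it overlapped between trb45 clf29 and clf29, with means of 0.853 and 0.826 CPM. It had 34, 56 and 41 counts in trb45 clf29, 72, 28 and 31 in clf29, 2, 0 and 0 in trb45 and 2, 0 and 0 in WT. Its ratio per library size against WT was 71.6 in trb45 clf29 (exact 95% interval 19.4 to 598) and 69.6 in clf29 (18.9 to 580), for counting error only.

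**Figure D3:**
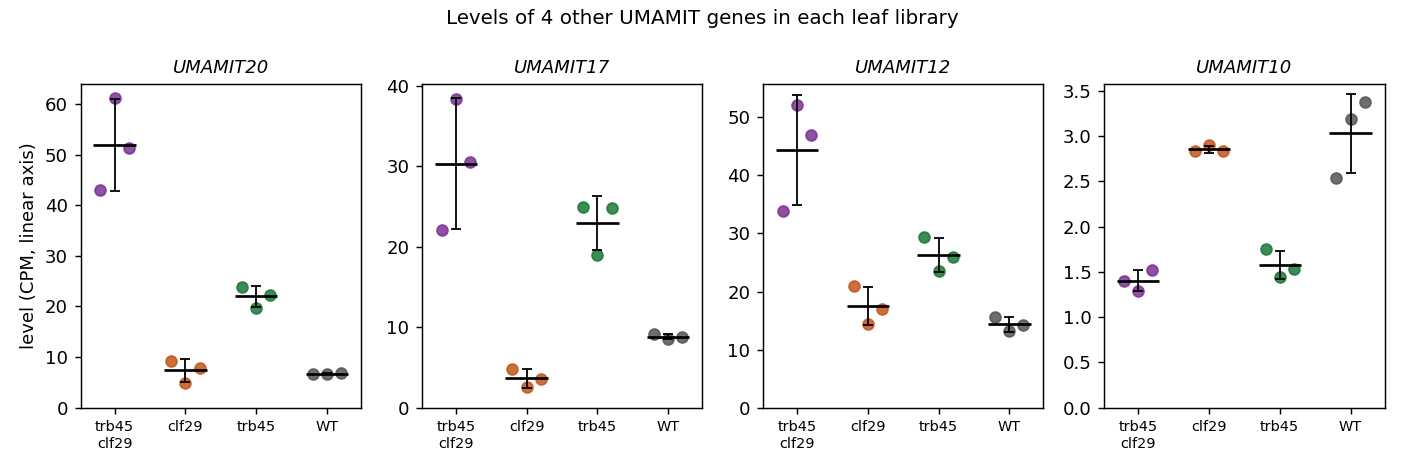
Level in CPM on linear axes of UMAMIT20, UMAMIT17, UMAMIT12 and UMAMIT10, 1 point per library, for trb45 clf29, clf29, trb45 and WT; the bar is the mean of 3 libraries and the whisker its SD. UMAMIT20, UMAMIT17 and UMAMIT12 are higher in both groups with the trb45 mutations than in clf29 or WT, and UMAMIT10 is lower in both.

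The trb45 effect can be set side by side with and without the clf29 mutation, since these 2 comparisons share no library. Over the 27 other family genes it had the same sign in 19 (70.4%), a share equal to the 70.4% of all genes tested. Pearson's r across these genes was 0.910 and Spearman's rho 0.778, beside 0.364 and 0.516 over all genes; genes are not independent replicates, and no test was made. The clf29 effect with and without the trb45 mutations had the same sign in 23 of 27 (85.2%, beside 72.3% of all genes). UMAMIT28, UMAMIT18 and UMAMIT36, which could be read in all 4 groups, kept the sign of both effects in both backgrounds.

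Carriers of other families also move amino acids, and 24 of them were listed: the amino acid permeases (AAP), LHT, cationic (CAT), proline (PROT), BAT1 and ANT1 carriers. Of 22 tested, 17 changed in trb45 clf29 against WT, 12 higher and 5 lower (77.3%, beside 48.5% of all genes tested). In clf29 against WT 12 changed, 7 higher and 5 lower (54.5% beside 34.7%), and in trb45 against WT 11, 6 higher and 5 lower (50% beside 25.7%). In trb45 clf29 against clf29 8 changed, 7 higher and 1 lower (36.4% beside 31.4%), and against trb45 10, 8 higher and 2 lower (45.5% beside 30.5%; 4 higher and 3 lower when scaled by library total alone). Their median log2 fold change lay between 0.01 and 0.30 in the 5 comparisons. AAP2, which moves amino acids from the xylem to the phloem, fell in trb45 clf29 against WT (log2 fold change −1.72, edgeR adjusted p = 4.73e-08) and in clf29 against WT (−1.69, adjusted p = 7.07e-08). CAT5 rose in trb45 clf29 against WT (1.75, edgeR adjusted p = 1.44e-06) and AAP4 fell in trb45 against WT (−1.01, adjusted p = 4.12e-06). AAP7 rose in clf29 against WT (1.48, edgeR adjusted p = 0.00256), while CAT6 rose in trb45 clf29 against clf29 (0.75, adjusted p = 7.56e-04).

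LHT1, which takes amino acids up into leaf and root cells, varied within trb45 clf29 as UMAMIT18 did. LHT1 had 2.55, 11.9 and 8.30 CPM in trb45 clf29, 2.04, 1.55 and 1.67 CPM in clf29, 2.73, 2.73 and 3.28 CPM in trb45, and 2.63, 3.56 and 3.16 CPM in WT. It rose in trb45 clf29 against clf29 (log2 fold change 2.11, SE 0.37, edgeR adjusted p = 4.57e-04), though trb45 clf29 replicate 1 lay below all trb45 and WT libraries. In trb45 clf29 against trb45 it had 1.38 (edgeR adjusted p = 0.00863), a call lost without trb45 clf29 replicate 2 and with the replicate number as a block (adjusted p of up to 0.0777 over 20 alternatives). Of the GDU genes, membrane proteins that raise amino acid export when overexpressed, 6 of 7 were tested and 2 changed in trb45 clf29 against WT, both higher (33.3% beside 48.5% of all genes). GDU3 was among those that rose in clf29 against WT (1.45, edgeR adjusted p = 9.08e-06).

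Fruit and seed are the known sites of 4 of the 5 genes, so markers of these organs were read in the same leaf libraries. Of 8 seed storage genes, 6 were at 0 in every library, and their summed level was 0.509 to 0.917 CPM in trb45 clf29, 0.228 to 0.262 in clf29, 1.53 to 1.96 in trb45 and 0.284 to 0.354 in WT. The 7 seed coat and endosperm genes summed to 0.120 to 0.502 CPM in trb45 clf29, 0.174 to 0.562 in clf29, 0.197 to 0.611 in trb45 and 0.373 to 0.558 in WT. Among the seed storage genes CRA1, a cruciferin, averaged 0.629 CPM in trb45 clf29, 0.203 in clf29, 1.66 in trb45 and 0.305 in WT. CRA1 rose in trb45 against WT (log2 fold change 2.44, edgeR adjusted p = 2.51e-05), in trb45 clf29 against WT (1.04, adjusted p = 0.0146) but fell in trb45 clf29 against trb45 (−1.40, adjusted p = 0.00185). Set against clf29, trb45 clf29 was higher by 1.62 (edgeR adjusted p = 0.00206). UMAMIT28 and UMAMIT18 were highest in trb45 clf29, and CRA1 in trb45. The 7 carpel and ovule genes summed to 94.1 to 98.9 CPM in trb45 clf29, 102 to 108 in clf29, 0.900 to 1.09 in trb45 and 0.627 to 1.08 in WT. The carpel markers CRC and INO were at 0 in trb45 clf29, while AG averaged 65.6 CPM there and 46.9 in clf29. SEP3 averaged 26.2 CPM in trb45 clf29 and 51.7 in clf29, and SHP1 averaged 0.105 and 0.573. UMAMIT14 was high in the same libraries as the sum of this list, which was mostly AG and SEP3. For these genes carpel cells and more RNA per leaf cell cannot be told apart, so their sum is not a measure of carpel tissue here. UMAMIT14 and AG were higher in trb45 clf29 than in clf29, while every other gene of the list had a lower mean there. The 5 anther and pollen genes summed to 1.21 to 1.95 CPM in trb45 clf29, 8.06 to 19.8 in clf29, 1.09 to 2.05 in trb45 and 1.35 to 1.74 in WT. The 5 vein phloem genes, SUC2 among them, summed to 597 to 673 CPM in trb45 clf29, 503 to 580 in clf29, 693 to 732 in trb45 and 638 to 666 in WT. Of these 5, SWEET11, which exports sucrose for phloem loading, averaged 149 CPM in trb45 clf29, 94.1 in clf29, 137 in trb45 and 85.2 in WT, the group order of UMAMIT18 and UMAMIT28. It rose in trb45 clf29 against WT (log2 fold change 0.81, edgeR adjusted p = 6.98e-07). Of the 5, 4 changed in that comparison, 2 higher and 2 lower (80% beside 48.5% of all genes tested). SUC2 averaged 241 CPM in trb45 clf29 and 303 in WT, and SWEET12 averaged 4.28 and 7.35. The 4 mesophyll genes, which code for photosynthetic proteins, summed to 89500 to 95976 CPM in trb45 clf29, 84533 to 89885 in clf29, 75572 to 87152 in trb45 and 76429 to 89617 in WT. CRA1 and SWEET11 were singled out after their values were seen. The part of these cell types in the levels of the 5 genes was not tested.

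The genes whose pattern was most like each of the 5 were found by Pearson's correlation of log2 CPM over the 12 libraries, among about 16344 tested genes with a mean of at least 1 CPM. The 12 points fall into 4 groups, so the value mostly measures likeness of the group means. UMAMIT14 was most like SHP2 (r = 0.991), iPGAM2 (0.990), a phosphoglycerate mutase of glycolysis, and AG (0.987); SHP2 and AG are MADS-box factors of the carpel. SHP2 averaged 2.58 CPM in trb45 clf29, 3.14 in clf29, 0.0218 in trb45 and 0 in WT. UMAMIT29 was most like NIR1 (0.991), the nitrite reductase of nitrate assimilation, PMEPCRF (0.991), a pectin methylesterase, and CAX3 (0.991), a vacuolar cation exchanger. NIR1 averaged 627 CPM in trb45 clf29, 520 in clf29, 437 in trb45 and 368 in WT, the group order of UMAMIT29 over a much smaller range. UMAMIT18 was most like AT5G20190 (0.985), XTH32 (0.984), an enzyme of wall xyloglucan, and CYCD2;1 (0.977), a cyclin. UMAMIT28 was most like AT5G20700 (0.984), AT1G13360 (0.981) and GLU2 (0.980), a glutamate synthase that makes glutamate from glutamine. UMAMIT36 was most like AT1G68580 (0.976), AT5G50740 (0.969) and AT1G73655 (0.968), and AT1G68580 averaged 24.9 CPM in trb45 clf29, 29.1 in clf29, 29.0 in trb45 and 34.6 in WT.

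The nearest gene on either side of each of the 5 was also read. LHY, a transcription factor of the circadian clock, lies 572 bases from UMAMIT28 and averaged 266 CPM in trb45 clf29, 270 in clf29, 255 in trb45 and 261 in WT, with no change called in any comparison. AT1G44790, 329 bases from UMAMIT18, had a log2 fold change of 0.17 in trb45 clf29 against WT (edgeR adjusted p = 0.0995). AT2G39500, 1034 bases from UMAMIT14, rose in trb45 clf29 against WT (0.51, edgeR adjusted p = 0.00195). UMAMIT31, 8270 bases from UMAMIT29, fell (−0.50, edgeR adjusted p = 0.0306). Beside UMAMIT36, AT1G70250 at 468 bases fell in trb45 clf29 against WT (−0.45, edgeR adjusted p = 0.0112) and so did AT1G70270 at 4655 bases (−0.61, adjusted p = 0.00609). Of the 10 neighbours, AT2G39518 and CBL5 were too low to test. Of the other 8, AT2G39500, UMAMIT31, AT1G70250 and AT1G70270 were called in trb45 clf29 against WT, where 48.5% of all genes tested were called. The 8 tested had log2 fold changes between −0.61 and 0.51 in trb45 clf29 against WT, beside −5.35 to 2.97 for the 3 of the 5 genes with a level in WT. The 3 were among genes picked for their differences in these libraries, so a wider range than that of the neighbours was set by that choice. Whether levels moved with their surroundings was not tested.

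**Figure D4:**
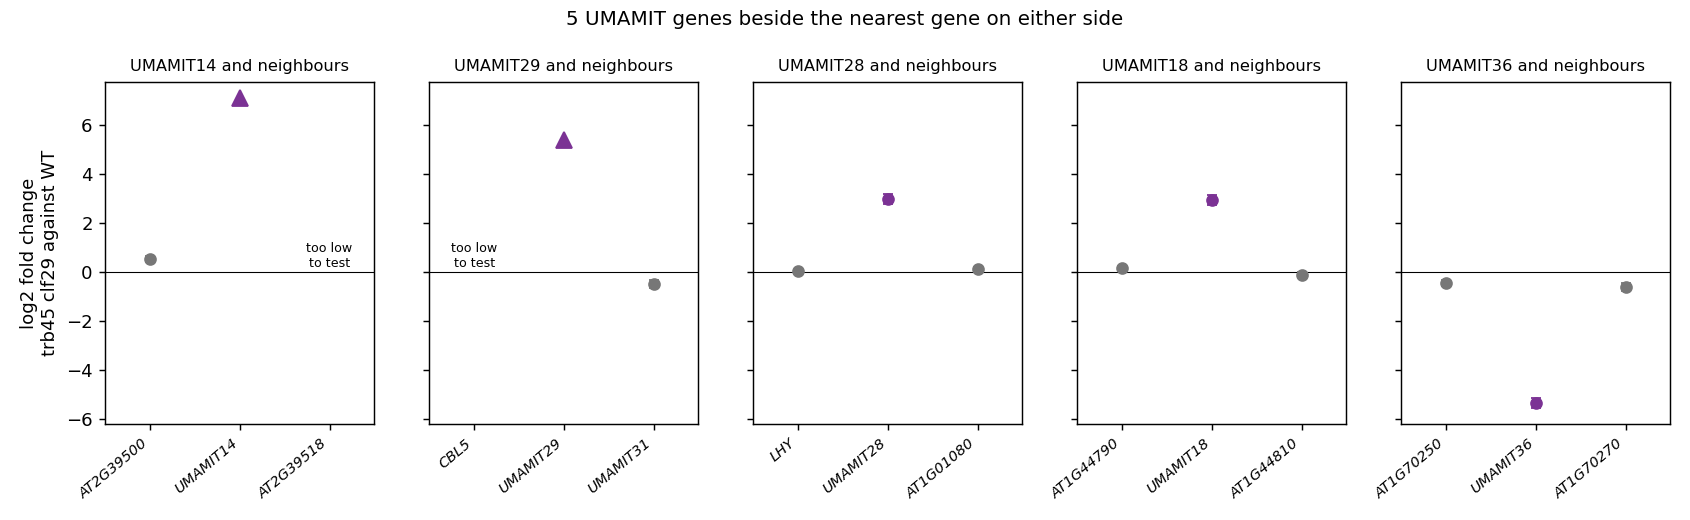
Fitted log2 fold change in trb45 clf29 against WT of each of the 5 UMAMIT genes (purple, middle) and of the nearest gene on either side (grey), in chromosome order, with bars for the SE; triangles are lower bounds for UMAMIT14 and UMAMIT29, which had no count in WT. The grey points lie between −0.61 and 0.51, close to the line at 0.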

How the data were processed

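PolyA RNA of mature leaves was sequenced as stranded libraries on DNBSEQ, per the labels. The table deposited by the authors holds raw counts per gene, whole numbers with no scaling, for 12 libraries and 28775 locus codes. HISAT2, DESeq2 and TAIR10 are named in the submitters' processing notes. The counting program and annotation, the use of strand and the treatment of reads that match several genes are not given in the sources used here. Groups were taken from the genotype labels. Of the 12 value columns, 1 has a trb45 clf29 name without a number and served as that group's unnumbered replicate, and 0 columns were left unused.

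Genes were kept by filterByExpr (minimum count 10, minimum total 15), which left 19138. Libraries were scaled with TMM factors (0.935 to 1.07). All 12 libraries entered 1 quasi-likelihood fit with 4 group means in edgeR 4.0.16 under R 4.3.3, with 8 residual degrees of freedom. Calls were made at a Benjamini-Hochberg adjusted p under 0.05 over all genes tested. SE values were derived from the F statistic. The interaction compares the trb45 effect between clf29 and WT plants. On simulated counts for trb45 against WT over 19138 genes, with 200 changed, the fit recovered 83.0% of 2-fold and 94.0% of 4-fold changes, and 3.8% of its calls were false. That simulation changed far fewer genes than were called here (25.7% in trb45 against WT), so its rates need not hold for these comparisons. Depth was 45519206 to 54215882 counts per library, and replicates differed by more than sampling noise (chi-square per degree of freedom 6.62 to 29.6).

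The 5 genes, the family and carrier lists and the markers were chosen with earlier results of these data known. The 5 genes have no test in any comparison. Family genes are those RefSeq names UMAMIT with a number, and 46 of 47 are in the table. For each comparison, the 4 other family genes and the 3 carriers or GDU genes with the largest absolute change were named, among called genes averaging 1 CPM or more. For each of the 5, the 3 genes most like it (log2 CPM, prior count 2), the nearest gene on each side and its closest relatives were also named. Symbols, coordinates, exon lengths and promoters are from RefSeq, TAIR10.1, except TRB4 (AT1G17520) and TRB5 (AT1G72740), named from a written list. The upstream sequences of some of the 5 genes are not reported here. Proteins were translated from RefSeq coding sequences and aligned globally with BLOSUM62 in Biopython 1.88. Intervals of count ratios are exact, from scipy 1.17.1. The alternatives were other scaling, other filters, a fold threshold, the 6 libraries of a comparison alone, a block for replicate number, every library omitted in turn, and DESeq2 1.42.0. The unblocked fit over the 11 numbered libraries was chosen after seeing the data.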

Additional observations from a re-analysis of the deposited data

Results flagged for a closer look

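In 7 of the tested carriers the trb45 effect in the clf29 background differed from that in the WT background, by the interaction term of the edgeR model, and each difference was positive. UMAMIT17 had a difference of 1.68 on the log2 scale (SE 0.28, edgeR adjusted p = 0.00181). UMAMIT20 had 1.11 (SE 0.24, edgeR adjusted p = 0.00954). UMAMIT46 had 0.55 (SE 0.16, edgeR adjusted p = 0.0491), a call lost in 12 of 19 alternatives, with an adjusted p of up to 0.127. These were 3 of 27 other family genes (11.1%), beside 7.47% of all genes tested. LHT1 had 2.20 (SE 0.52, edgeR adjusted p = 0.0159), which reached 0.0896 with the replicate number as a block. AAP4 had 0.78 (SE 0.15, edgeR adjusted p = 0.00405), AAP6 had 0.59 (SE 0.098, adjusted p = 0.00174) and ANT1, a carrier of aromatic and neutral amino acids, had 0.38 (SE 0.10, adjusted p = 0.0351). LHT1, AAP4, AAP6 and ANT1 were 4 of 22 carriers of other families (18.2%, beside 7.47% of all genes tested). A positive difference was not always a larger increase. The trb45 effect on AAP4 was −1.01 without the clf29 mutation and −0.23 with it, and on AAP6 −0.50 and 0.09.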

How the results depend on the processing

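No value called as changed turned its direction, and the uncalled difference of 0.07 for UMAMIT36 between the trb45 effects in the clf29 and WT backgrounds was −0.23 with a replicate block. Of 375 counts of calls under the alternatives 345 stayed within 1.5 times, and of 2142 values of tested named genes 53 lost and 28 gained a call. Of the 5 UMAMIT genes, UMAMIT28 and UMAMIT29 moved by less than 1 SD in all alternatives, and UMAMIT14 in all but 3 of 40, UMAMIT18 in all but 5 of 119 and UMAMIT36 in all but 6 of 119. The log2 fold change of UMAMIT14 in trb45 clf29 against trb45 was 7.54 in the fit and 11.64 without trb45 replicate 2. Asking also for a change of 1 or more in size on the log2 scale left, in trb45 against WT, clf29 against WT, and trb45 clf29 against WT, clf29 and trb45, 2, 2, 8, 4 and 3 other family genes, 2, 2, 6, 1 and 2 carriers, and 709, 1254, 1754, 1116 and 975 of all genes; for the interaction it left 1 carrier and 439 genes. Fitting only 6 libraries left 7 carriers in trb45 against WT. Scaling by library total alone moved the median of all genes by −0.12 in trb45 clf29 against WT and by −0.13 against trb45, with 1694 genes higher and 5028 lower in that comparison, against 3018 higher and 2811 lower as reported. By the same scaling 2448 were higher and 4231 lower in clf29 against WT, against 3541 and 3106 as reported, 3537 and 6010 in trb45 clf29 against WT, against 4953 and 4333, and 606 and 853 in the interaction, against 796 and 633.

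Replicate numbers did not mark a shared plant, tray or day in the labels, and deviations of same-numbered libraries correlated at −0.255 to 0.322, with 2 of 15 pairs over 0.1. Libraries correlated best with their own number in 4 of 6 (trb45 and WT), 2 of 6 (clf29 and WT) and 4 of 6 (clf29 and trb45). With a replicate block in the fit of the 11 numbered libraries, all genes called were 3897 in trb45 clf29 against clf29, 3115 against trb45 and 657 in the interaction, with 4 carriers against trb45 and 2 in the interaction. Without the block the same 11 libraries gave 6 carriers against trb45 and 949 genes in the interaction.

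Leaving out each library in turn gave, for the other family genes, 8 to 10 calls in trb45 against WT, 8 to 11 in clf29 against WT, 15 to 18 in trb45 clf29 against WT, 8 to 12 against clf29, 6 to 11 against trb45 and 2 to 4 in the interaction. All genes called ranged from 4343, without WT replicate 1, to 7453 in clf29 against WT, and from 949, without WT replicate 3 or the unnumbered library, to 1926 in the interaction. Carriers in trb45 clf29 against trb45 ranged from 6, without trb45 replicate 3 or the unnumbered library, to 11. Depth limits what can be said of UMAMIT14 and UMAMIT29 in trb45 and WT and of UMAMIT36 in trb45 clf29, where 20 counts or fewer lie behind each value.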
